A study of Rattus norvegicus with 6 samples.

Results

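Kit and Kitlg, the receptor and the ligand of one signalling pair, were followed in cultured newborn rat ovaries with and without connective tissue growth factor (CTGF). They are 2 of the 14324 genes that the platform annotation names with a single symbol, each represented by 1 of the 27342 probe sets of the array, and were chosen by these symbols. The array data came from 6 samples of whole ovaries of female Sprague-Dawley pups, removed on the day of birth (0 days old) and kept in organ culture for 24 h. Of these, 3 control samples received no treatment and 3 samples received recombinant human CTGF at 500 ng/ml. The RNA of 2 to 3 ovaries was pooled for a sample, and each of the 3 culture batches (organ culture dates) gave 1 control and 1 CTGF pool. The ovaries were cultured whole, so germ cells, pregranulosa cells, stroma, vessels and resident blood cells all contributed RNA.

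Kit is a receptor tyrosine kinase of class III, the group that also holds the PDGF receptors, Csf1r and Flt3. In the ovary it is carried by oocytes and by theca and stromal cells, while its ligand, also called stem cell factor, is made by the pregranulosa and granulosa cells. Binding of the ligand pairs the receptors, which then signal through PI3K and Akt to the Foxo factors and mTOR, and through Ras to the MAP kinases. The pair is known for germ cell survival and migration and for the growth of primordial follicles, and outside the germ line mast cells, melanocytes and blood progenitors depend on it. Kit ligand is made as a membrane-bound protein, and splicing decides whether a form carries the site at which proteases release it. The array gives 1 value for each gene over all its probes, so the soluble and membrane-bound forms were not told apart.

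Rat Kit lies on chromosome 14 and Kitlg on chromosome 7. The bases that lead into each gene are shown as context for the regulators measured on the same arrays. They come from the RefSeq annotation of the GRCr8 build, end at the last base before the annotated gene, and are written 5′ to 3′ on the gene's own strand. Capitals mark the TATA box (TATAAA).
Kit, chr14:32978896-32979062, minus strand: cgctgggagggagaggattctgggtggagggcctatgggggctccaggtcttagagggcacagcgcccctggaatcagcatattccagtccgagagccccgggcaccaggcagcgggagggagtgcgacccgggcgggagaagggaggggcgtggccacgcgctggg
Kitlg, chr7:36782410-36782620, plus strand: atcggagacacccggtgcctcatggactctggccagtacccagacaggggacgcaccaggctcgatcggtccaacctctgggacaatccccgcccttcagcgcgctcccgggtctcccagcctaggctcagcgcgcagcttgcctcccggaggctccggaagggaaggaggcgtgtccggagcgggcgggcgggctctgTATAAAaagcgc
Both stretches are rich in G and C, 70.1% of 167 bases for Kit and 67.8% of 211 bases for Kitlg. The medians were 50.3% and 50.7% over 33469 rat promoter windows of the same lengths. While the 2 stretches end just before the gene, these windows were the first bases of each promoter sequence and need not end there. TATAAA stands at the 3′ end of the Kitlg stretch, 1 time, and 10.6% of windows of that length hold it. It is not in the Kit stretch, where 8.42% of windows hold it. Neither stretch holds the letters of an E-box (CANNTG), the motif read by basic helix-loop-helix factors such as Sohlh2 and Mitf, which 51.8% and 59.7% of windows of the 2 lengths hold. All motifs were searched on both strands, and a missing match says only that these letters are not in this window.

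Both genes gave a strong signal in the newborn ovary. The mean signal of Kit over the 6 arrays lay at the 92.9th percentile of all probe sets and that of Kitlg at the 95.4th. A level of background was taken from 46 probe sets of genes that belong to other organs (eye, pancreas, pituitary, hypothalamus, thyroid, mammary gland, kidney, gut and lung), whose 95th percentile was a signal of 53.6. Kit lay 15.7-fold and Kitlg 21.9-fold above this level, and 0 of the 46 probe sets reached the signal of either gene. Of all probe sets 51.1% lay above it. Probes differ in how well they bind, so the signals of Kit and Kitlg do not show which transcript was the more abundant.

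**Figure D1:**
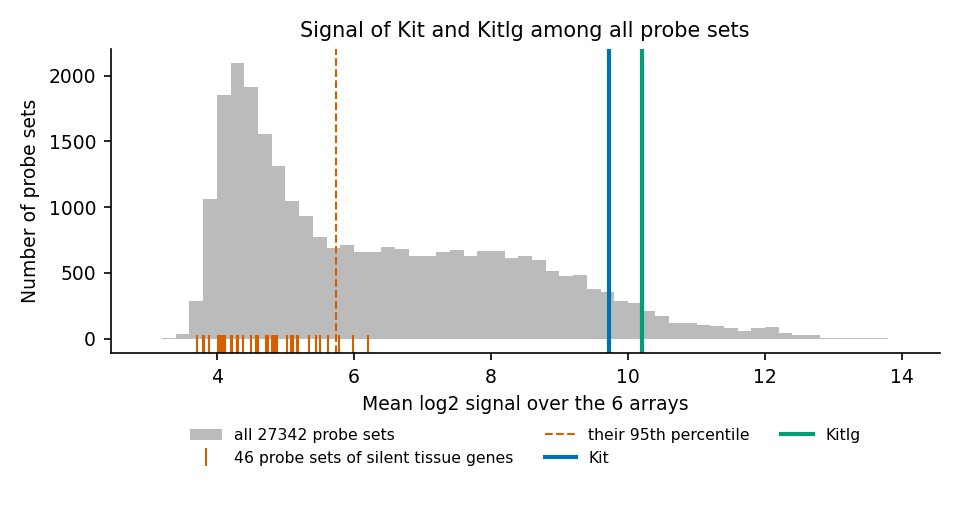
Number of probe sets (vertical axis) by mean log2 signal over the 6 arrays (horizontal axis), with the 46 probe sets of silent tissue genes (orange ticks), their 95th percentile (dashed line), and Kit (blue line) and Kitlg (green line). Both lines lie far to the right of the silent tissue genes, at the 92.9th and 95.4th percentile of all probe sets.

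Kit, the receptor, had a signal of 809, 798 and 755 in the control samples of culture batches 1, 2 and 3, and of 879, 885 and 936 in the CTGF samples. All 3 CTGF samples lay above all 3 control samples, and the batch with the lowest control had the highest CTGF sample. The deposited pairs of the 3 batches have nearly the same mean, so both follow once all 3 differences are positive. The group means were 787 ± 28.6 for control and 900.1 ± 31.1 for CTGF (SD, n = 3 each), a ratio of 1.14. On the log2 scale CTGF minus control was 0.12, 0.15 and 0.31 in the 3 batches, with a mean of 0.19 and a standard error of 0.07 (95% interval 0.02 to 0.36, or 1.02-fold to 1.29-fold). The unadjusted p was 0.0326 and the adjusted p was 0.994 (limma, with culture batch as a block and p-values adjusted by Benjamini-Hochberg across the array). The difference thus did not pass the test. It was in 1 direction in all 3 pairs, for which the exact sign-flip permutation test gives p = 0.25 (two-sided), the smallest that 3 pairs allow.

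The test over the whole array sets the scale for that value. No probe set, 0%, had an adjusted p under 0.05 in limma or in the methods' 2-way test, where 915 and 1147 had an unadjusted p under 0.05. In limma an unadjusted p under 0.05 was reached by 3.35% of probe sets in either direction and by 1.45% with the higher signal in CTGF, and Kit was among the latter. A mean log2 difference as high as that of Kit or higher was found in 1.65% of probe sets. Control and CTGF samples did not overlap, with CTGF the higher, in 9.41% of probe sets. The study's criteria combine a ratio beyond 1.2 or 0.83, un-logged signals more than 10 apart and an unadjusted p under 0.05, and 0.435% of probe sets, or 119, met them with the p of limma, against 30 with that of the methods' 2-way test. Kit had a difference of 112.8 and missed them by its ratio. Its unadjusted p was 0.0818 in the methods' 2-way test and between 0.0649 and 0.0889 when any 1 batch was left out.

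Kitlg, the ligand, had a signal of 1121, 1053 and 1193 in the control samples of batches 1, 2 and 3, and of 1235, 1314 and 1160.1 in the CTGF samples. The groups overlapped, since the control sample of batch 3 lay above its CTGF partner. The group means were 1122 ± 70.0 for control and 1236 ± 77.1 for CTGF (SD, n = 3 each), a ratio of 1.10. The log2 difference was 0.14, 0.32 and -0.04 in the 3 batches, with a mean of 0.14 and a standard error of 0.09 (95% interval -0.07 to 0.35, or 0.954-fold to 1.27-fold). It did not pass the test (unadjusted p = 0.152, adjusted p = 0.994, limma), and the exact sign-flip permutation test gave p = 0.50 (two-sided). A mean log2 difference as high or higher was found in 4.79% of probe sets. Without batch 2 the mean difference was 0.05 and without batch 3 it was 0.23, so single batches set the size of this value.

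The SDs of both genes hold no spread between batch means. They reflect how the difference between CTGF and control varied over the 3 batches. For every probe set the deposited log2 values of a batch's pair average to one number, equal between batches up to 0.005, so a sample that lies high in one group has a partner that lies low in the other. For this reason a gene with the same sign in all 3 batches always shows groups that do not overlap.

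**Figure D2:**
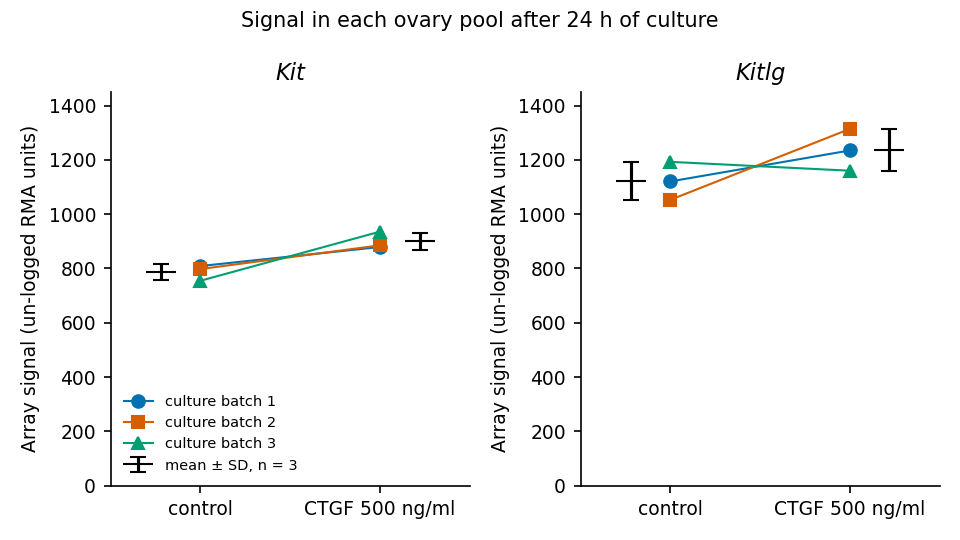
Un-logged array signal (vertical axis) of Kit (left) and Kitlg (right) in the control and CTGF pools (horizontal axis), with a line for each of the 3 culture batches and the mean ± SD of each group (black, n = 3). All 3 lines of Kit go up, while for Kitlg those of batches 1 and 2 go up and that of batch 3 goes from 1193 to 1160.1. Signals of different genes are not to be set against each other.

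Receptor and ligand were then compared within the same pools. The log2 difference of Kitlg less that of Kit was 0.02, 0.17 and -0.35 in the 3 batches, with a mean of -0.05 and an SD of 0.27 (n = 3 pairs). The exact sign-flip permutation test of this difference gave p = 1 (two-sided). Batch 3, which had the largest difference for Kit, had the smallest for Kitlg. Without batch 3 the mean was 0.095, so the order of the 2 genes turned with 1 batch.

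Kit and Kitlg are carried by different cells, and markers of these cells differed between the pools of a batch. In whole ovaries fewer cells of a type and less RNA per cell cannot be told apart. The label of the tissue was borne out by its markers, with 15 of 16 germ cell markers and 11 of 14 pregranulosa markers above the background level. Dazl and Ddx4, RNA-binding proteins of germ cells, had signals of 906 ± 72.7 and 653 ± 57.4 (SD, n = 3) in control ovaries, and Amhr2, the receptor of anti-Müllerian hormone in pregranulosa cells, one of 864 ± 58.8 (SD, n = 3). Foxl2 was not analysed here.

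The median log2 difference of the 16 germ cell markers was 0.12, -0.025 and 0.165 in batches 1, 2 and 3, beside 0.12, 0.15 and 0.31 for Kit. Sycp3, of the synaptonemal complex, showed the same order with wider steps, 0.37, -0.38 and 0.48. Kit less the germ cell median was 0.00, 0.175 and 0.145, a mean of 0.11 ± 0.09 (SD, n = 3). In batch 2 the markers were divided, with 8 higher and 8 lower, among them the zona pellucida gene Zp3 at 0.11 and Ddx4 and Dazl at -0.26 and -0.23. The summed signal of the 16 markers lay between 10129 and 11406 in control samples and between 10463 and 11789 in CTGF samples. Their part in the difference of Kit was not tested.

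The 14 pregranulosa markers had medians of -0.08, 0.105 and -0.065 in the 3 batches, and Kitlg had 0.14, 0.32 and -0.04. Both were highest in batch 2. Kitlg less this median was 0.22, 0.215 and 0.025, a mean of 0.15 ± 0.11 (SD, n = 3). Among the named markers Lgr5, a receptor of R-spondins, had 0.04, 0.22 and -0.12, the signalling factor Wnt4 had -0.35, 0.23 and -0.07, and the activin antagonist Fst had -0.36, 0.04 and 0.13. The summed signal was 3703 to 4047 in control samples and 3583 to 3912 in CTGF samples. The part of these cells in the difference of Kitlg was not tested.

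In batch 3, 11 of 12 stroma and theca markers had a lower signal with CTGF. The 12 stroma and theca markers had medians of 0.115, 0.015 and -0.365, with Col1a1, a collagen chain, at -0.56 and Dcn, a matrix proteoglycan, at -0.43 in that batch. The theca gene Cyp17a1, of androgen synthesis, had -0.48, -0.42 and 0.66, and was picked out after its values were seen. The summed signal of the 12 markers was 6169 to 7585 in control samples and 5505 to 6725 in CTGF samples. In the same batch Kit had its largest difference, 0.31, and Kitlg its smallest, -0.04. The share of stroma in either value was not tested.

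**Figure D3:**
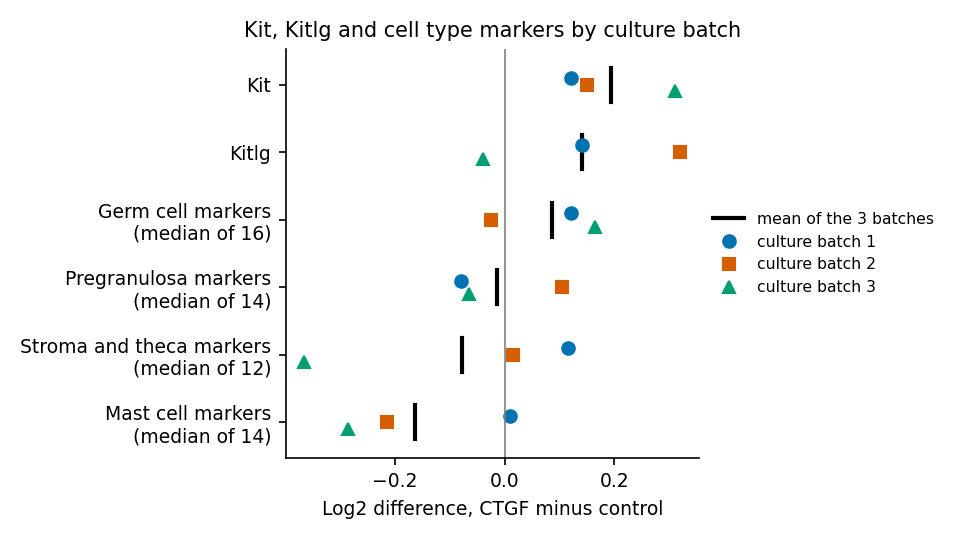
Log2 difference between the CTGF and the control pool (horizontal axis) of culture batches 1 (circles), 2 (squares) and 3 (triangles) for Kit, Kitlg and the median of 4 lists of cell type markers (vertical axis), with the mean of the 3 batches (black bars). The 3 points of Kit lie between 0.12 and 0.31, and each of the 4 lists has points on both sides of 0.

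Mast cells carry Kit throughout their life and need Kit ligand to survive. On the mean of the 3 batches, most of their measured genes lay on the other side of 0 from Kit. Of 14 measured mast cell markers 10 were lower and 4 higher with CTGF, and 4 of the lower ones had an unadjusted p under 0.05, where 1.89% of all probe sets did in that direction. By batch, 7 were higher and 6 lower in batch 1, 3 and 11 in batch 2, and 2 and 11 in batch 3. The signal of Cpa3, the mast cell carboxypeptidase, was 342 ± 81.6 for control and 194 ± 45.8 for CTGF (SD, n = 3 each). Its log2 difference was -0.14, -0.80 and -1.52 in the 3 batches, with a mean of -0.82 and a standard error of 0.23 (adjusted p = 0.994, limma). The chymase Cma1 had a mean of -0.53 and the tryptase Tpsab1 one of -0.31, both at signals below the background level, and the fourth was Mcpt10, a mast cell protease, at -0.25. In batch 1 Cma1, Tpsab1 and Mcpt10 had -0.04, -0.02 and 0. The summed signal of the 14 markers was 774 to 1012 in control samples and 634 to 798 in CTGF samples. Of the 14, 4 lay above background, so most directions of the 14 cannot be read above it. One of these 4, the mast cell protease Mcpt1, was picked out after its values were seen. It had signals of 125 for control and 126 for CTGF, with log2 differences of 0.49, -0.04 and -0.41, a mean of 0.01. No mast cell marker passed the adjusted test, and their part in the difference of Kit was not tested.

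Markers of other cells that use Kit, or descend from cells that do, varied in level. Tyr, the tyrosinase that makes melanin, had a signal of 13.2 in control and 13.3 in CTGF ovaries, and of 6 melanocyte markers 1 lay above background, Oca2, which was picked out after its values were seen. Oca2 had signals of 528 and 557. Klf1, the erythroid factor, had signals of 28.2 and 27.5 and Ptprc, the common leukocyte antigen, 52.4 and 50.5, all below the background level. Of 10 blood cell markers 4 lay above it. They were the hemoglobin chain Hbb, at 783 and 781, the macrophage genes Csf1r and Cd68, and Cd34, of blood progenitors and of vessels, at 540 and 467. Hbb and Cd68 were likewise picked out after their values were seen. Cd34 had log2 differences of 0.28, -0.23 and -0.68 in the 3 batches. The summed signal of the 10 blood cell markers was 1507 to 1770 in control samples and 1496 to 1760 in CTGF samples.

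The genes through which Kit signals had small differences. Over 4 lists, of kinases and adaptors next to the receptor, of the PI3K, Akt, Foxo and mTOR branch, of the Ras and MAP kinase branch and of negative regulators, 60 genes were analysed. Of these, 39 were higher and 21 lower with CTGF, beside 12905 higher and 13963 lower of all 27342 probe sets. The median log2 difference was 0.03, beside -0.00 for all probe sets, and 48 of the 60 lay within 0.1 of 0. The share of all probe sets within 0.1 was not counted, so the small differences do not set these genes apart. None of the 60 passed the adjusted test, and 1 of them, or 1.67%, had an unadjusted p under 0.05, where 3.35% of all probe sets did.

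Of 18 kinases and adaptors that bind the activated receptor or act next to it, 14 were higher and 4 lower. Gab2, a docking protein that brings PI3K to receptors, had a log2 difference of 0.10 (standard error 0.07), Fyn, a Src family kinase, one of 0.03 and Jak2 one of 0.06. Lyn, the Src family kinase of blood cells, had a signal of 41.6 in control ovaries, below background. Grb2, the adaptor to Ras, had 0.06, and a second, dim probe set of Grb2 was left aside by the rule of the highest mean signal. In the PI3K branch 15 of 18 genes were higher and 3 lower, with a median of 0.04 and a range of -0.10 to 0.17. The PI3K regulatory subunit Pik3r1 had 0.04, Akt1 0.05, the Akt-activating kinase Pdpk1 0.01 and Mtor 0.01. Foxo3, the factor that holds primordial follicles in reserve when Akt does not act on it, had -0.26, 0.10 and 0.24 in the 3 batches, a mean of 0.03 (standard error 0.10). Tsc1 and Tsc2, which restrain mTOR, had 0.00 and -0.04, and Cdkn1b, a cell cycle inhibitor and Foxo target, had 0.04.

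In the Ras and MAP kinase branch 4 genes were higher and 4 lower. Map2k1, the kinase of the MAP kinases, had 0.10 (standard error 0.07) and Nras 0.01. Of 16 negative regulators 6 were higher and 10 lower. Sh2b3, also called Lnk, an adaptor that dampens Kit and cytokine receptors in blood cells, was the 1 signalling gene with an unadjusted p under 0.05. Its signal was 41.9 ± 1.95 for control and 51.4 ± 2.35 for CTGF (SD, n = 3 each), and its log2 difference was 0.33, 0.15 and 0.41 in the 3 batches, a mean of 0.30 (standard error 0.08, adjusted p = 0.994, limma). Both signals lay below the background level of 53.6. Dusp6, a phosphatase that Erk activity induces, had 0.08, -0.04 and -0.61, and Spry2, a feedback inhibitor of the Ras branch, had a mean of -0.01. The phosphatases Ptpn6 and Inpp5d had -0.01 and -0.01, Inpp5d at signals below the background level, and Socs6, which binds Kit, had -0.05.

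**Figure D4:**
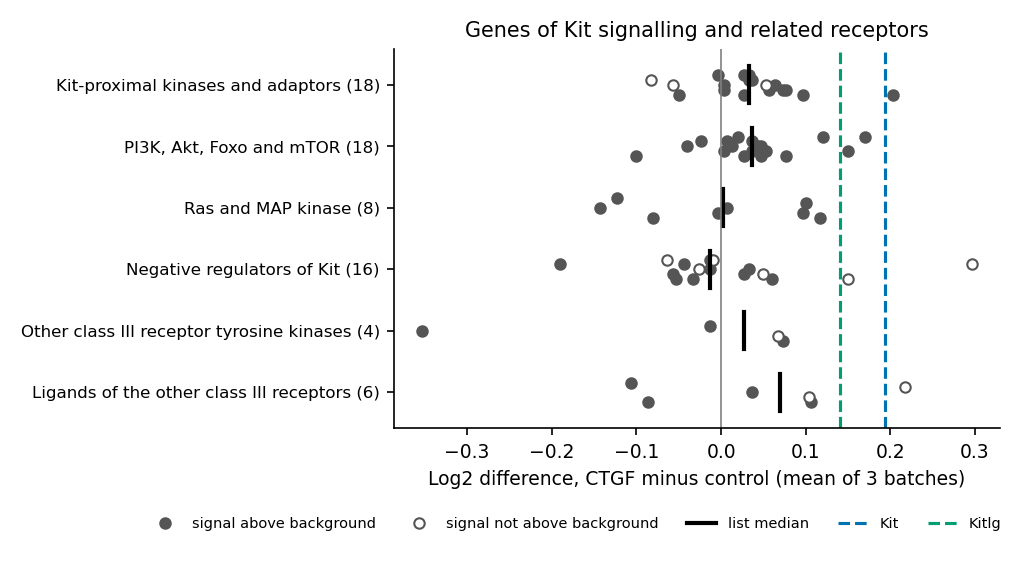
Mean log2 difference between CTGF and control (horizontal axis) of each measured gene of 4 lists of Kit signalling and 2 lists of related receptors and ligands (vertical axis, number of genes in brackets), with filled points for signals above background, open points for the others, and a bar for the list median. The medians lie between -0.01 and 0.07, and the dashed lines mark Kit at 0.19 and Kitlg at 0.14.

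Among the other receptors of class III none shared the sign of Kit in all 3 batches. Such a shared sign goes with groups that do not overlap, CTGF the higher, found in 9.41% of all probe sets. That share is low, so its absence from 4 receptors says little about them. Pdgfra, the PDGF receptor of stromal cells and the next named gene to Kit on chromosome 14, had a log2 difference of 0.11, -0.14 and -1.03, a mean of -0.35 (standard error 0.21). Pdgfrb, of mural and stromal cells, had 0.17, 0.34 and -0.55. Csf1r, the macrophage receptor, had 0.17, -0.10 and 0.15, and Flt3, of early blood cells, lay below background. Of the 6 measured ligands of these receptors 4 were higher and 2 lower, from -0.11 for Pdgfc to 0.22 for Pdgfb, whose signal lay below background, and 0 of the 6 had an unadjusted p under 0.05. Neither the receptors nor the ligands passed the test (adjusted p = 0.994, limma).

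Regulators of the pair were measured too. Of the transcription factors tied to Kit in germ, mast or pigment cells 6 were analysed, 3 higher and 3 lower, while Sohlh1, Nobox and Figla were not analysed here. Lhx8, a homeobox factor of early oocytes, measured 339 ± 18.8 for control and 377 ± 21.6 for CTGF (SD, n = 3 each). Its log2 difference was 0.04, 0.08 and 0.34, with a mean of 0.15 (standard error 0.08, unadjusted p = 0.109, adjusted p = 0.994, limma). It was positive in all 3 batches, which goes with groups that do not overlap, CTGF the higher, found in 9.41% of all probe sets. Like that of Kit, it was largest in batch 3. Lhx8 is also 1 of the 16 germ cell markers, whose median was likewise highest in that batch, at 0.165. Sohlh2, a helix-loop-helix factor of germ cells known to act on Kit, had 0.14, -0.02 and 0.26, a mean of 0.13 (standard error 0.08). Mitf and Gata2, which act on Kit in pigment and blood cells, lay below background, at signals of 26.2 and 30.2 in control ovaries.

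For the ligand, 5 factors known to act on Kitlg in growing follicles were measured, with 2 higher and 3 lower. The oocyte factors Gdf9 and Bmp15 had signals of 238 and 237 in control ovaries and log2 differences of 0.03 and -0.05. Fgf7, Hgf and the FSH receptor Fshr lay below background. Adam17, a protease that releases membrane-bound ligands, measured 624 ± 27.1 in controls (SD, n = 3), with a log2 difference of 0.06 (standard error 0.07), and Mmp9 lay below background.

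The genes most like each member were sought by the distance between their 3 batch differences and those of the member, among 8259 named genes above background. With 3 values to match, 16 genes lay within 0.1 of Kit and 34 within 0.1 of Kitlg. Nearest to Kit were Clu, which encodes the secreted chaperone clusterin (0.10, 0.19 and 0.34 in the 3 batches, at a distance of 0.05), then Chic2, G0s2, Bik and Fam81a, at distances of 0.05 to 0.07. Nearest to Kitlg was Ring1, a Polycomb protein (0.15, 0.32 and -0.01, at a distance of 0.03), then Fbxo42, Prdx3, Xrcc4 and Kdm1b, at distances of 0.06 to 0.07.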

How the data were processed

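The 6 samples were hybridised by the authors to a whole-transcript rat array, and the deposited values are log2 signals that the authors made with RMA and a GC-content adjustment in Partek. They hold no further depth information, and the number of arrays limits the precision. Probe sets were named from the platform annotation, with current symbols for the 15067 of 15097 single-symbol probe sets that matched RefSeq. The labels pair control and CTGF samples by culture batch, and the methods block for it. Deviations of paired samples from their group means correlated at -0.9988, -0.9988 and -0.9991, which follows from batch means that had been made equal before deposit. Differences (CTGF minus control) were fitted with lmFit and eBayes of limma 3.58.1 (R 4.3.3), batch as a block and no filter, with moderated standard errors, 2 residual and 4.22 prior degrees of freedom, and Benjamini-Hochberg adjustment over all 27342 probe sets. Un-logged signals are given as mean ± SD. A gene with several probe sets is given by the one with the highest mean signal. Kit, Kitlg, the gene lists, the genes named for their role and the rule for the most similar genes (Euclidean distance of the 3 batch differences) were chosen with earlier results of these data known. The fit was tested on simulated data for CTGF against control, drawn for all 27342 probe sets. The noise had the variances moderated by eBayes, which differ less between probe sets than their own. In the simulated data the fit recovered 14% of 50 changes of 1.2-fold and 100% of 50 changes of 1.5-fold. The same simulated set held 50 changes of 2-fold and 50 of 4-fold, of which 100% were recovered. Large changes ease the Benjamini-Hochberg adjustment for the others. In the real data no probe set passed, so these shares are too high for them. Alternatives were a fit without the block, quantile normalization, centred medians, a filter on background, the methods' 2-way test without moderation, eBayes with trend and robust, and each batch left out. The intensities before summarization were not analysed here.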

Additional observations from a re-analysis of the deposited data

How the results depend on the processing

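Under all 9 alternatives the log2 differences of Kit (0.135 to 0.23) and Kitlg (0.05 to 0.23) stayed positive. The fit without the block, the filter on background, the 2-way test and the trend and robust options cannot change a mean difference. Leaving out 1 batch could not turn the sign of Kit, which was positive in all 3. Both genes missed an adjusted p of 0.05 under all 9, with adjusted p from 0.115 to 1 for Kit and from 0.356 to 1 for Kitlg. The unadjusted p of Kit was under 0.05 in 5 of the 9. With no replicate block, which counts degrees of freedom that the deposited values no longer hold, it was 0.00318 and that of Kitlg 0.0707, and 4415 probe sets in place of 915 reached an unadjusted p under 0.05, against 386 with the filter on background, which tests fewer. Without single batches Kitlg less Kit ranged from -0.165 to 0.095 and turned its sign without batch 3. The 119 probe sets at the study's criteria became 30 in the methods' 2-way test, 0 with the adjusted p and 185 to 273 without single batches. Of the signalling genes, 1 with an unadjusted p under 0.05 became 10 with no replicate block, 2 with quantile normalization, 3 with centred medians, 0 with the filter on background, 2 with trend and robust options, 4 in the methods' 2-way test and 1 to 5 without single batches. Where no construction of the alternative shows it, the cause was not tested. Of the medians of the gene lists, counted for each list and alternative, 138 stayed within the SD between batches of the main value and 12 did not. The fit without the block, the trend and robust options and the 2-way test cannot change a median, so part of the 138 was fixed in advance. With 3 pairs, simulated differences of 1.2-fold were recovered in 14% of cases. They were drawn with moderated variances and beside larger changes, which ease the adjustment. This share does not carry over to Kit, whose ratio is smaller than 1.2.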

Other observations

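After the values were seen, the named genes next to Kit and Kitlg in RefSeq's order were looked up, 4 on each side. Chic2, the second nearest gene to Kit in its batch differences among 8259 genes, lies 3 named genes from it on the same chromosome, with 0.10, 0.14 and 0.26 in the 3 batches. The 6 other measured neighbours had mean log2 differences from -0.35 (Pdgfra) to 0.06 (Tmem165). Of the 4 measured neighbours of Kitlg, Galnt4 had 0.26, 0.21 and -0.04, beside 0.14, 0.32 and -0.04 for Kitlg, and the 3 others had means from -0.19 (Dusp6) to -0.01 (Tmtc3). No test was made of these neighbours as a group.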
